A study of Mus musculus with 10 samples.

Results

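Syndecans and glypicans are the main families of proteoglycans that carry heparan sulfate at the cell surface. Their 10 mouse genes, Sdc1 to Sdc4 and Gpc1 to Gpc6, were taken by symbol from the transcript names, and they are 10 of the 45583 gene symbols in the tables. For each symbol the estimated reads and the TPM of all its transcripts were summed in each library. Of the 10 genes, 9 passed the filter on low counts and Gpc5 did not.

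The series followed mouse embryonic fibroblasts (MEF) during reprogramming toward pluripotency, with 2 libraries in each of 5 groups. The MEF and the induced cells of day 3 to day 9 carried a doxycycline-inducible OKSM cassette (Oct4, Klf4, Sox2 and Myc) in the Col1a1 locus. They also carried the transactivator M2rtTA in the ROSA26 locus, on a C57BL/6 x 129 background. Uninduced MEF were in MEF medium without doxycycline. Cells at day 3, day 6 and day 9 were in ESC medium (15% serum, LIF at 1000 U/ml) to which doxycycline (1 µg/ml) and ascorbic acid (50 µg/ml) had been added. Sorting for the surface antigen SSEA1 was applied to the cells of day 6 and day 9 and not to those of day 3. The embryonic stem cells (ESC) were the V6.5 line, also C57BL/6 x 129 and with no cassette in their label, unsorted and grown on irradiated feeder cells in ESC medium. The comparison of day 3 with MEF therefore combines induction, ascorbic acid, the change of medium and sex-linked RNA, and that of day 6 with day 3 combines time and sorting. That of ESC with day 9 combines state, genotype, medium, sorting, feeders and sex-linked RNA. The labels do not give the number of embryos, the ESC are 1 line, and the replicates are called biological with no statement that they came from separate inductions, so p-values measure the spread between these libraries only.

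Both families attach heparan sulfate chains to a core protein, and the chains bind growth factors, morphogens and matrix proteins, among them FGF, Wnt and BMP ligands. Syndecans span the membrane and have a short cytoplasmic tail that contacts scaffold proteins and the cytoskeleton. Glypicans are held in the outer membrane by a lipid (GPI) anchor. In pluripotent stem cells, heparan sulfate is known as a co-receptor for FGF signalling, and fibroblasts use syndecans in adhesion to the matrix.

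Libraries held 29585876 to 38275024 estimated reads, and all carried 1 batch label. Levels are given as CPM, which is a read count scaled by library size and TMM factor and compares a gene between libraries, or as TPM, which also divides by transcript length and was used to compare genes. Summed TPM of 10 fibroblast markers ran from 10472 to 11096 in MEF, 596.6 to 621 at day 3, 100.8 to 104.9 at day 6, 83.2 to 90.6 at day 9 (Lum at 0 in both libraries) and 1376 to 1422 in ESC. The ESC libraries, which come from cultures on feeders, thus held 13.0% of the MEF sum. Summed TPM of 8 pluripotency markers was 2577 to 2605 in ESC, 96.6 to 98.5 at day 9 and at most 0.853 in MEF. Epithelial markers (6 genes) summed to 324.3 to 342.6 TPM at day 9, 113.6 to 115 in ESC and 5.35 to 6.10 in MEF. Leukocyte markers (5 genes) summed to 4.40 to 5.42 TPM in MEF, 78.4 to 80.1 at day 3, 149.2 to 153.4 at day 6, 111.4 to 115.6 at day 9 and 58.5 to 65.0 in ESC. From day 3 on Laptm5 was the largest of the 5, at 72.0 TPM of the day 3 sum, and Ptprc was at most at 0.928 CPM in any group mean. Endothelial markers (5 genes) summed to 2.21 to 3.67 TPM in MEF, 17.9 to 19.4 at day 3 and 17.5 to 20.3 at day 6. Their sum was 10.9 to 11.9 TPM at day 9 and 5.48 to 6.77 in ESC. Between MEF and day 3, Tek rose from 2.33 to 120.9 CPM, Cdh5 from 0.138 to 7.54 and Plvap from 0.582 to 1.95. Emcn went the other way, from 4.155 to 0.043 CPM. Vwf, at 0.594 and 0.487 CPM, did not differ beyond the spread of the libraries. Glial and neural crest markers (4 genes) summed to at most 5.65 TPM. The sex-linked RNAs set the induced cells apart from MEF and from ESC: Xist was at 0.766 CPM in MEF, 1009.7 at day 3, 1075.4 at day 9 and 10.2 in ESC, while Y-linked Ddx3y was at 88.5, 0.0713, 0.0987 and 26.5 CPM. Y-linked Eif2s3y was at 56.1 CPM in MEF and 0.0578 at day 3. The MEF libraries thus had the pattern of male cells and the induced libraries that of female cells. Falls and rises from MEF are therefore differences between libraries of different cells, and do not follow the same cells over time. Sex-linked RNA and stage cannot be told apart in the comparisons of the induced groups with MEF or with ESC. The part of these marker and sex-linked differences in the results on syndecans and glypicans was not tested except where a value is given.

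The summed RNA of both families was highest in MEF, lower at day 3 and lowest from day 6 on. Together the 10 genes held 264.3 ± 3.70 TPM in MEF (mean ± SD, n = 2 libraries here and below), 132.3 ± 1.21 at day 3, 93.2 ± 0.854 at day 6, 94.6 ± 1.29 at day 9, with 94.4 ± 3.08 in ESC. The syndecans accounted for 136.7 ± 0.998 TPM in MEF, 81.2 ± 0.644 at day 3, 59.9 ± 3.27 at day 6, 58.6 ± 0.523 at day 9, with 50.6 ± 3.85 in ESC. Glypicans held 127.7 ± 2.70 TPM in MEF, 51.2 ± 0.567 at day 3, 33.2 ± 2.42 at day 6, 36.0 ± 0.766 at day 9, with 43.8 ± 0.768 in ESC. MEF and day 3 stood above every later library in both families, while the ranges of the 10-gene sum at day 6, day 9 and in ESC met. Over transcripts annotated as protein-coding alone these ranges were apart. They were 72.6 to 73.0 TPM at day 6, 77.3 to 78.0 at day 9 and 82.2 to 83.6 in ESC. In such bulk RNA, fewer cells that express a gene and less RNA per cell cannot be told apart.

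Within these totals, different members led in different groups. Among syndecans in MEF, Sdc1 held 31.7% of the family's TPM, Sdc2 29.1%, Sdc3 22.4% and Sdc4 16.9%. By day 9, Sdc1 held 47.6% and Sdc4 39.6%, with Sdc2 at 11.7% and Sdc3 at 1.15%. In ESC the 4 shares were 34.9% for Sdc1, 22.6% for Sdc4, 22.2% for Sdc2 and 20.3% for Sdc3. The ESC were grown on feeders and their libraries held 13.0% of the MEF sum of fibroblast markers. The part of feeder RNA in the ESC shares of either family was not tested. Among glypicans, Gpc4 held 54.7% in MEF, 24.2% at day 6, 29.3% at day 9 and 51.0% in ESC. Gpc2 went from 3.00% of glypican TPM in MEF to 42.9% at day 6, 42.7% at day 9 and 8.35% in ESC. These shares depend on which transcripts are summed: over transcripts annotated as protein-coding, Gpc2 held 2.26% in MEF, 27.2% at day 6, 29.9% at day 9 and 6.00% in ESC, and Sdc2 held 18.6% of syndecan TPM in MEF and 12.7% in ESC. On that basis Gpc4 was ahead of Gpc2 at day 6 (31.3%) and at day 9 (36.3%).

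**Figure D1:**
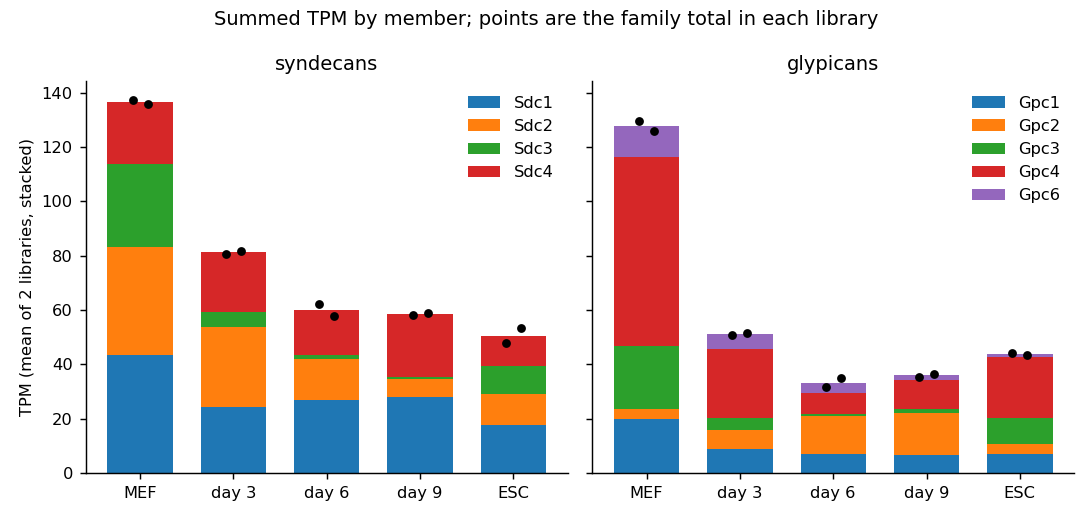
Stacked bars of TPM, as the mean of the 2 libraries of MEF, day 3, day 6, day 9 and ESC, for the 4 syndecans and for the glypicans without Gpc5. Points give the family total in each library. The totals are highest in MEF (136.7 TPM of syndecans and 127.7 of glypicans as means), the Sdc3 and Gpc3 bands are thin at day 6 and day 9, and the Gpc2 band widens there.

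In the test of each step, 5 of the 9 tested members were lower at day 3 than in MEF and 0 higher. A gene was called where the edgeR quasi-likelihood test gave a Benjamini-Hochberg adjusted p-value under 0.05 over all 20140 genes tested and the fold change was at least 2. Of all tested genes 29.1% were called in that comparison, 14.6% as higher and 14.5% as lower. Between day 3 and day 6, 4 members fell and 0 rose, against 19.5% of all genes called (9.25% higher and 10.2% lower). In the third step, to day 9, Gpc3 rose and Sdc2 fell, where 7.86% of all genes were called (5.19% higher and 2.67% lower). Between ESC and day 9, 2 members (Sdc3 and Gpc3) were higher in ESC and 2 (Sdc4 and Gpc2) lower, where 32.9% of all genes were called (18.6% higher and 14.3% lower). Directly between the end points, 7 members were lower in ESC than in MEF and 0 higher, with 46.1% of all genes called (25.5% higher and 20.6% lower). Day 9 differed from MEF in 7 members as well, 6 lower and 1 (Gpc2) higher, against 43.9% of all genes (24.1% higher and 19.8% lower). The comparisons with MEF share the MEF libraries and are not independent of each other. The median log2 fold change of the 9 members was -1.01 for day 3 with MEF, beside 0.08 over all tested genes, and -0.60 for day 6 with day 3, beside 0.03. It was 0.23 for day 9 with day 6 (0.00 over all genes), -0.09 for ESC with day 9 (0.00) and -1.59 for ESC with MEF (0.10).

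**Figure D2:**
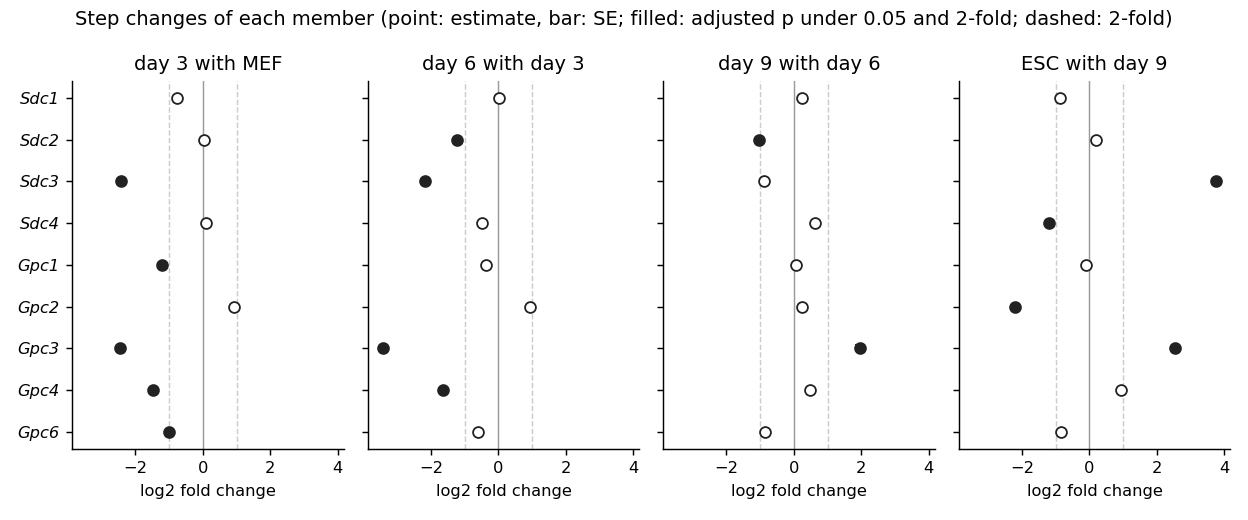
Log2 fold change of each tested member, with its standard error, in the 4 successive steps from MEF to day 3, day 6, day 9 and ESC; filled points passed both thresholds and dashed lines mark 2-fold. The first and second steps hold only called decreases (5 and 4 genes), and Sdc3 and Gpc3 stand out above the line in the step to ESC.

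Sdc3 showed the widest range of the syndecans. The gene (ENSMUSG00000025743.12) lies at chr4:130792537-130826319 on the plus strand (GRCm38), and its product is best known as the syndecan of neural tissue and muscle progenitors. Its level was 277.4 and 283.3 CPM in the MEF libraries, 52.6 and 51.8 at day 3, 11.4 and 11.5 at day 6, 6.46 and 5.99 at day 9, and 83.0 and 85.7 in ESC. No groups overlapped, and the order from high to low was MEF, ESC, day 3, day 6 and day 9. Sdc3 fell 5.37-fold from MEF to day 3 (log2 fold change -2.43 ± 0.038 SE, edgeR adjusted p = 5.2e-16) and a further 4.56-fold to day 6 (-2.19 ± 0.050, edgeR adjusted p = 8.8e-14). Day 9 lay below day 6 by 0.88 on the log2 scale, short of the 2-fold minimum, and stood 45.2-fold below MEF. The difference between ESC and day 9 was 13.6-fold in the other direction (3.77 ± 0.053, edgeR adjusted p = 2.5e-16). ESC held 30.1% of the MEF level of Sdc3, in libraries where fibroblast markers held from 1.11% (Lum) to 42.9% (Fn1) of theirs, with a median of 9.09%.

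Sdc2 fell later. Syndecan-2 (ENSMUSG00000022261.5, chr15:32920723-33034935, plus strand) is the syndecan best known from mesenchymal cells. It stood at 137 and 143.5 CPM in MEF and 144.6 and 143.5 CPM at day 3, and the 2 groups did not differ beyond the spread of the libraries (log2 fold change 0.04 ± 0.041, edgeR adjusted p = 0.44). At day 6 it was at 63.3 and 59.8 CPM and at day 9 at 30.5 and 30.1 CPM, below both earlier groups. The decrease was 2.34-fold from day 3 to day 6 (-1.23 ± 0.044, edgeR adjusted p = 9.5e-12) and 2.03-fold from day 6 to day 9 (-1.02 ± 0.050, edgeR adjusted p = 1.4e-09). The second of these falls just under 2-fold (-0.98) without day 6 replicate 1. ESC, at 33.4 and 36.1 CPM, lay close above day 9. In TPM, Sdc2 was lower at day 3 (29.6 ± 0.347) than in MEF (39.7 ± 2.36). The 2 scales weight a 405-base transcript differently: it took 4.51% and 5.11% of the Sdc2 reads in MEF and 2.06% and 1.70% at day 3, and each read on so short a transcript counts heavily in TPM. The 3322-base transcript alone was at 19.7 and 20.1 TPM in MEF and 21.1 and 21.9 at day 3. With effective lengths as an offset, the step from day 3 to day 6 was -0.96 and missed the 2-fold minimum.

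From day 6 on, Sdc1 and Sdc4 stood higher relative to MEF than Sdc2 and Sdc3 did. Sdc1 (ENSMUSG00000020592.12, chr12:8771323-8793715, plus strand), the syndecan of epithelia and plasma cells, stood at 197 and 198.9 CPM in MEF, 122.8 and 110.3 at day 3, 116.9 and 120.4 at day 6, 138.2 and 143.3 at day 9, and 72.9 and 80.2 in ESC. MEF was the highest group and ESC the lowest, and the libraries of day 3 and day 6 overlapped (edgeR adjusted p = 0.73). No successive step of Sdc1 reached 2-fold, and the largest were -0.76 for day 3 with MEF and -0.88 for ESC with day 9 on the log2 scale. ESC was 2.58-fold lower than MEF (-1.37 ± 0.052, edgeR adjusted p = 5.4e-12).

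Sdc4 (ENSMUSG00000017009.3, chr2:164424247-164443887, minus strand), a focal adhesion component that binds protein kinase C alpha, was the syndecan with the narrowest range before ESC. It was measured at 79.0 and 77.4 CPM in MEF, 82.9 and 85.0 at day 3, 59.3 and 60.1 at day 6, 90.1 and 94.1 at day 9, and 40.7 and 39.8 in ESC. Day 9 was the highest group and ESC the lowest, and no groups overlapped. ESC was 2.29-fold lower than day 9 (log2 fold change -1.20 ± 0.041, edgeR adjusted p = 3.0e-12), which fell short of 2-fold on the log2(TPM + 1) scale (-0.97, limma). In the other 3 steps its log2 fold change lay between -0.49 and 0.63.

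**Figure D3:**
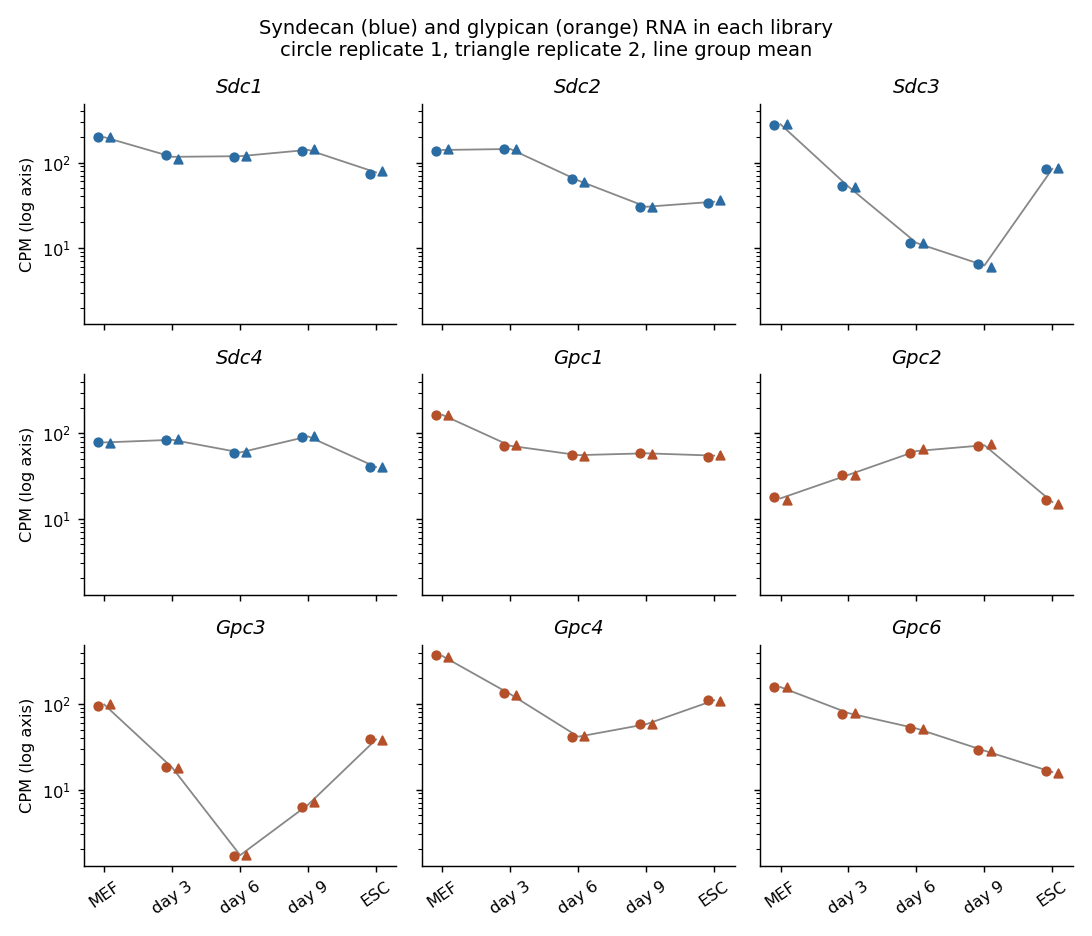
CPM on a log axis for each of the 9 tested members in the 10 libraries, with points for libraries and a line through group means, in the order MEF, day 3, day 6, day 9 and ESC. Sdc3, Gpc3 and Gpc4 trace a valley at day 6 or day 9, Gpc2 a peak at day 9, and Gpc6 is lower in each group than in the one before.

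Gpc3 and Gpc4 are neighbours on the X chromosome, and both fell with Sdc3 in the first step from MEF and again by day 6. Gpc4 (ENSMUSG00000031119.4) occupies chrX:52053021-52165252 and Gpc3 (ENSMUSG00000055653.11) chrX:52272426-52613950, both on the minus strand, with 107173 bases and 0 gene models between them. Glypican-3 is known for its loss in the overgrowth disorder named after Simpson, Golabi and Behmel and for its binding of hedgehog ligands, and glypican-4 for its part in Wnt signalling. Gpc3 was at 96.4 and 101.5 CPM in MEF, 18.5 and 17.7 at day 3, 1.68 and 1.72 at day 6, 6.20 and 7.07 at day 9, and 38.8 and 38.5 in ESC. Gpc4 was at 373.2 and 359.1 CPM in MEF, 134 and 127.7 at day 3, 41.2 and 41.9 at day 6, 58.4 and 58.0 at day 9, and 112.5 and 109.4 in ESC. For both genes MEF was the highest group and day 6 the lowest, and no groups overlapped.

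Gpc3 had the larger decreases of the pair. It fell 5.48-fold from MEF to day 3 (log2 fold change -2.45 ± 0.055, edgeR adjusted p = 2.9e-14) and 10.6-fold from day 3 to day 6 (-3.41 ± 0.099, edgeR adjusted p = 1.0e-12), so that day 6 stood 58.1-fold below MEF. Gpc4 fell 2.80-fold (-1.48 ± 0.035) and then 3.15-fold (-1.66 ± 0.040). From day 6 to day 9 Gpc3 rose 3.92-fold (1.97 ± 0.119, edgeR adjusted p = 1.3e-08), whereas Gpc4 differed by 0.49 on the log2 scale. On the log2(TPM + 1) scale, where low values are compressed, the difference of Gpc3 between day 9 and day 6 was 0.82 and missed the 2-fold minimum. ESC exceeded day 9 by 5.78-fold for Gpc3 (2.53 ± 0.068, edgeR adjusted p = 2.0e-13) and by 0.93 ± 0.039 on the log2 scale for Gpc4, which was not called. Relative to MEF, ESC held 39.1% of Gpc3 and 30.3% of Gpc4, beside the fibroblast marker levels given for Sdc3. As Xist and the Y-linked genes differed in these comparisons, X-linked genes were looked at as a whole. Of 744 tested, 14.8% were called lower at day 3 than in MEF and 16.3% higher, beside 14.5% and 14.6% of all tested genes. Their median log2 fold change was 0.03. Between ESC and day 9, 19.1% of the X-linked genes were called higher in ESC and 17.5% lower. Over all tested genes these shares were 18.6% and 14.3%, and the median of the X-linked genes was -0.09. The part of X linkage in the levels of Gpc3 and Gpc4 was not tested.

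The 250 bases upstream of the RefSeq start of Sdc3, Gpc3 and Gpc4 are shown because these genes fell together up to day 6. That of Gpc2 is shown because it was higher at day 9 than in MEF. From day 6 to day 9 Sdc3 went down (-0.88 on the log2 scale), whereas Gpc3 and Gpc4 went up (1.97 and 0.49). RefSeq promoter entries (GRCm38.p6) were found for 7 of the 10 members. Capitals mark the GC box (GGGCGG, or CCGCCC on the other strand), a motif of Sp and Klf factors, and the CACCC box (CCACCC, or GGGTGG), a motif bound by Klf4; matches on both strands were counted and may overlap. Sequences read 5′ to 3′ on the strand of the gene, at chr4:130792287-130792536 (plus) for Sdc3, chrX:52613975-52614224 (minus) for Gpc3, chrX:52164924-52165173 (minus) for Gpc4 and chr5:138279938-138280187 (minus) for Gpc2.
Sdc3: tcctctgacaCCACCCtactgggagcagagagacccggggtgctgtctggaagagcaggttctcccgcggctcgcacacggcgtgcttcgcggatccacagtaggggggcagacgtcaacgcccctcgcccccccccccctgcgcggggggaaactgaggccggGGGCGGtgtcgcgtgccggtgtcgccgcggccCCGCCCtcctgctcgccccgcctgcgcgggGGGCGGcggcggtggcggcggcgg
Gpc3: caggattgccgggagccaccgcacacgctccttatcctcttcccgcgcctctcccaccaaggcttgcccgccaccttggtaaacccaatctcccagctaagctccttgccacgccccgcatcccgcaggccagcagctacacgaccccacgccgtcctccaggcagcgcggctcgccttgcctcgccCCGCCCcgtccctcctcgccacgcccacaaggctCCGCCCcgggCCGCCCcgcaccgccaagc
Gpc4: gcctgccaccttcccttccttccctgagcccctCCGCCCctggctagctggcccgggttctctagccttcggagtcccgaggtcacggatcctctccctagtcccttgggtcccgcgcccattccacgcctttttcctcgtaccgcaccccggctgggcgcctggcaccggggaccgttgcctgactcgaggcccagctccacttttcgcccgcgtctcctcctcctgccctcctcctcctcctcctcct
Gpc2: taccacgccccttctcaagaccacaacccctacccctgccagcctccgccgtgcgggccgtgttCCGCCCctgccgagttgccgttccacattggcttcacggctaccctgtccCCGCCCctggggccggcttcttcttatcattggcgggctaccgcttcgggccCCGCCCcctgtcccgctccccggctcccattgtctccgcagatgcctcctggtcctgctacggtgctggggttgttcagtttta
Sdc3 and Gpc3 each held 3 GC boxes, Gpc4 1 and Gpc2 3. A CACCC box was found in Sdc3 (1 match), and in none of the other 3 windows. Among the members with an entry that are not shown, Sdc1 held 3 GC boxes and 4 CACCC boxes. Sdc4 held 4 and 1, and Gpc5 held 1 and 0. GC boxes were thus not particular to the genes shown. Of 32851 RefSeq promoters, 32.7% held a GC box and 28.1% a CACCC box in a window of this length. The RefSeq start of Gpc4 lies 329 bases from the start of the GENCODE gene, so for that gene the window depends on the annotation. These matches describe letters only.

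Gpc2 was the only member called higher at day 9 than in MEF. Sdc4 was also higher there (0.24 on the log2 scale, edgeR adjusted p = 6.6e-05) but short of the 2-fold minimum. Glypican-2 (ENSMUSG00000029510.13, chr5:138273655-138280005, minus strand), known from developing neurons and neuroblastoma, was at 18.1 and 16.5 CPM in MEF, 32.8 and 32.6 at day 3, 58.1 and 66.0 at day 6, 70.8 and 74.3 at day 9, and 16.6 and 14.8 in ESC. Each induced group lay above the one before it, and the MEF and ESC libraries overlapped (edgeR adjusted p = 0.14). Neither the difference of day 3 from MEF (0.92 on the log2 scale) nor that of day 6 from day 3 (0.93) reached 2-fold alone. Between MEF and day 9 the rise was 4.20-fold (log2 fold change 2.07 ± 0.073, edgeR adjusted p = 2.1e-12), and ESC was 4.64-fold lower than day 9 (-2.21 ± 0.072, edgeR adjusted p = 1.8e-12).

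Part of the Gpc2 reads were assigned to transcripts annotated as retaining an intron. Their share was 12.0% and 13.6% in MEF, 38.6% and 46.8% at day 3, 36.8% and 37.9% at day 6, 30.5% and 31.3% at day 9, and 19.4% and 14.0% in ESC. All 6 induced libraries lay above all MEF and ESC libraries. TPM over protein-coding transcripts alone was 2.85 ± 0.247 in MEF, 3.37 ± 0.265 at day 3, 6.95 ± 0.125 at day 6, 8.71 ± 0.0493 at day 9, with 2.54 ± 0.151 in ESC. Over all transcripts the corresponding values were 3.83 ± 0.242, 7.18 ± 0.219, 14.3 ± 2.51, 15.4 ± 0.955 and 3.66 ± 0.168 TPM. Thus the day 3 level was 1.18 times that of MEF on the protein-coding transcripts and 1.87 times on all, while day 9 stood above MEF by 3.06-fold and 4.01-fold. With reads of 50 nt, the split between transcripts that share exons is an estimate. A second gene ID with the symbol Gpc2, named Gm43720 in GENCODE M21, overlaps the gene on the same strand and is included in these sums.

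**Figure D4:**
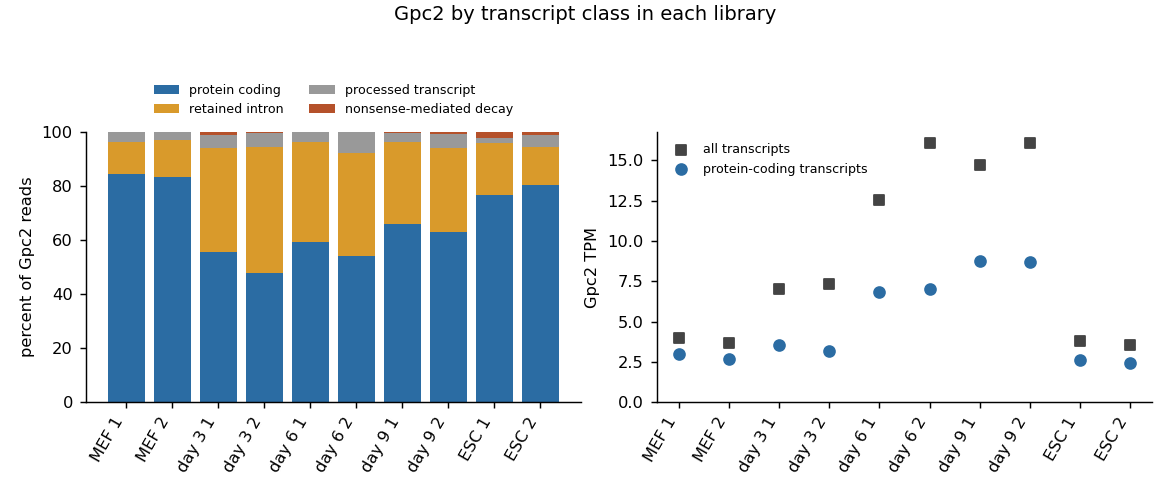
Left, share of the estimated Gpc2 reads by annotated transcript class in each library, in percent; right, TPM of Gpc2 over all transcripts and over protein-coding transcripts. Retained-intron transcripts take 30.5% to 46.8% in the induced libraries and at most 19.4% in MEF and ESC. The group means of both TPM measures are highest at day 9. Over all transcripts the libraries of day 6 (12.5 and 16.1 TPM) and day 9 (14.7 and 16.1 TPM) overlap.

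Among the 4 successive steps, Gpc1 had a called decrease only in the first. Glypican-1 (ENSMUSG00000034220.7, chr1:92831645-92860779, plus strand), a broadly expressed modulator of FGF signalling, was at 164.4 and 164.8 CPM in MEF and 70.3 and 72.5 at day 3. It then stood at 56.4 and 54.7 CPM at day 6, 59.1 and 57.5 at day 9, and 53.4 and 56.2 in ESC. The libraries of day 6 and ESC overlapped (edgeR adjusted p = 0.71), and day 9 did not differ from day 6 beyond the spread (edgeR adjusted p = 0.23). Day 6 lay below day 3 with no overlap (-0.36 ± 0.041 on the log2 scale, edgeR adjusted p = 2.8e-06), short of the 2-fold minimum. The decrease from MEF to day 3 was 2.31-fold (log2 fold change -1.21 ± 0.038, edgeR adjusted p = 1.3e-12), and ESC was 3.00-fold lower than MEF (-1.59 ± 0.039). With library-size scaling in place of TMM, the difference of day 3 from MEF came just under the 2-fold minimum.

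Gpc6 was lower in each successive group. Glypican-6 (ENSMUSG00000058571.8, chr14:116925315-117976544, plus strand), a mesenchymal glypican with a known role in skeletal growth, was at 157.1 and 159.5 CPM in MEF, 77.5 and 79.5 at day 3, 52.2 and 51.6 at day 6, 28.7 and 28.4 at day 9, and 16.4 and 15.6 in ESC. No groups overlapped. The first step was at the edge of the fold minimum (2.02-fold lower, -1.01 ± 0.037, edgeR adjusted p = 5.8e-12) and lay under it without MEF replicate 2 (-0.99) or without day 3 replicate 1 (-0.99). It was also under it with no low-count filter, with library-size scaling (-0.81), with the length offset (-0.98) and on the log2(TPM + 1) scale (-0.87). Later steps were -0.60, -0.86 and -0.84 on the log2 scale, none of them called, and ESC was 9.90-fold lower than MEF (-3.31 ± 0.044, edgeR adjusted p = 1.0e-16). ESC held 10.1% of the MEF level of Gpc6, beside a median of 9.09% for the fibroblast markers. This was the lowest share of the 9 tested members, whose median in ESC was 33.3% and whose highest was 90.5% (Gpc2). At day 9 Gpc6 was 5.55-fold below MEF, while the median of the fibroblast markers was 0.177% of MEF. The part of feeder RNA in the ESC level of Gpc6 was not tested.

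Gpc5 was at or near 0. The gene (ENSMUSG00000022112.12, chr14:115092215-116525179, plus strand) lies 400135 bases from Gpc6 and had 0 reads in all MEF and day 9 libraries, 1.00 estimated read in day 3 replicate 1, 1.30 in day 6 replicate 1 and 7.55 in ESC replicate 1, with 0 in the other replicate of each. A count of 0 allows up to 3 reads, which is 0.0784 to 0.101 CPM in these libraries, for counting error only. A difference in Gpc5 was not detectable at this depth.

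By the Pearson correlation of log2 CPM over the 10 libraries, the protein-coding genes most like each member were found among 11182 tested genes at 10 CPM or more in their highest group. The 10 points are 5 pairs of libraries, so such values describe the shape across groups. Sdc3 was most like Thbs2 (r = 0.998) and Col5a2 (r = 0.998), a thrombospondin and a fibrillar collagen of connective tissue. Col5a2 stood at 4031 CPM in MEF, 10.5 at day 9, with 538.5 in ESC, and is also one of the fibroblast markers. For Gpc6 the nearest were Zfhx4 (0.999) and the cadherin Dchs1 (0.999), and for Sdc2 Tmem175 (0.998) and the transcriptional co-activator Wwtr1, or TAZ (0.996). Gpc4 was nearest to Ndrg1 (0.998) and Anxa4 (0.996), and Gpc3 to Plin3 (0.992) and Parm1 (0.991). Plin3 shared the shape but not the size, with 96.7 CPM in MEF and 62.2 at day 6. Gpc2 was nearest to the kinase Hunk (0.997), at 15.0 CPM in MEF, 79.5 at day 9, with 13.3 in ESC, and to Ranbp6 (0.994). Gpc1 was paired with Arl1 (0.996) and Vimp (0.996), Sdc1 with Cuta (0.982) and Maoa (0.982), and Sdc4 with Reep4 (0.974) and Anxa8 (0.965).

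Among 12 genes of the linker and chain polymerisation, 1 was called between MEF and day 3, 0 in each of the steps to day 6 and day 9, and 1 between day 9 and ESC, where 29.1%, 19.5%, 7.86% and 32.9% of all tested genes were called. The decrease was in Ext1, a subunit of the heparan sulfate polymerase, from 190.2 ± 3.65 CPM in MEF to 59.0 ± 0.946 at day 3 (log2 fold change -1.69 ± 0.041, edgeR adjusted p = 5.9e-14). Between ESC and MEF 2 of the 12 were higher and 3 lower, beside 46.1% of all genes called (25.5% higher and 20.6% lower). Their median log2 fold change was -0.81, beside 0.10 over all tested genes.

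Modifying enzymes, which deacetylate, epimerise and sulfate the chain, included genes called in both directions. Of 14 tested (16 in the list), at day 3 2 had risen and 6 fallen from MEF, and in ESC 2 lay above and 10 below MEF (median log2 fold change -1.62), beside 29.1% and 46.1% of all genes called in these comparisons. The increases at day 3 were Hs3st3a1 (3.44 to 22.6 CPM, 6.58-fold) and Hs3st3b1 (4.37 to 28.2 CPM, 6.40-fold), which encode 3-O-sulfotransferases. Their sulfotransferase domains are nearly identical, so reads may be split between them. Hs3st3b1 rose again to 65.2 CPM at day 6 and both were low in ESC, at 0.562 and 4.25 CPM. Hs6st2, a 6-O-sulfotransferase, fell from 131.2 CPM at day 3 to 21.2 at day 6 and 8.42 at day 9.

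Among 10 tested genes for removal and shedding (11 in the list), 0 were higher and 4 lower at day 3, 1 was higher and 4 lower at day 6 against day 3, and 3 were higher and 0 lower in ESC against day 9. Of all genes 29.1%, 19.5% and 32.9% were called there, so the 3 of 10 in ESC are near the share over all genes. Mmp14, a membrane metalloprotease that cleaves syndecan-1, fell from 897.6 CPM in MEF to 219 at day 3 and 75.6 at day 6. Mmp9 fell from 10.1 to 0.555 CPM at day 3, and heparanase (Hpse) from 12.1 CPM at day 3 to 3.43 at day 6. Notum, a lipase first described as releasing glypicans from the membrane, was at 1.87 CPM at day 9, with 17.1 in ESC (3.19 ± 0.189, edgeR adjusted p = 1.6e-09).

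Chondroitin sulfate is the other chain that syndecans can carry, and its list had the most called decreases of the 6 lists at day 3 and at day 9 against MEF. Of its 13 synthesis genes, 8 were lower and 1 higher at day 3 than in MEF, 6 lower and 0 higher at day 6 than at day 3, and 10 lower and 2 higher at day 9 than in MEF, with a median of -2.24 on the log2 scale. Over all genes 29.1%, 19.5% and 43.9% were called in these comparisons, and the median for day 9 with MEF was 0.19. Csgalnact1, which starts the chain, fell from 49.0 CPM in MEF to 3.91 at day 3 (12.5-fold). Chst3, a 6-O-sulfotransferase, went the other way, from 2.19 CPM in MEF to 119 at day 3 (53.9-fold; 5.75 ± 0.076, edgeR adjusted p = 1.1e-16). Dse and Chst15 fell from day 3 to day 6, Chst11 rose from 14.7 to 49.1 CPM between day 6 and day 9, and Csgalnact1 was higher in ESC (7.92 CPM) than at day 9 (0.0700 CPM).

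Other proteoglycans that bear or can bear heparan sulfate changed without a common direction. Of 10, 1 was higher and 4 lower at day 3 than in MEF, 3 higher and 3 lower at day 6 than at day 3, and 5 higher and 1 lower in ESC than at day 9, beside 29.1%, 19.5% and 32.9% of all genes called. Spock2 (testican-2) rose from 1.58 to 74.9 CPM at day 3 and stood at 167.6 at day 6 and 72.3 at day 9. Basement membrane Col18a1 fell from 186.5 to 19.7 CPM at day 3 and rose to 87.1 at day 6. Nrp1 fell from 66.9 CPM at day 3 to 1.61 at day 6 and was at 46.8 in ESC. Cd44 was at 58.0 CPM at day 6, 23.6 at day 9, with 145.5 in ESC. Of 8 cytoplasmic partners of syndecans, 2 fell at day 3, the scaffold kinase Cask (97.8 to 26.8 CPM) and Prkca (45.3 to 20.3 CPM), and 2 rose at day 6, Ezr (90.7 to 187.7 CPM) and Tiam1 (19.2 to 38.7 CPM). These counts of 2 of 8 are near the shares of all genes called, 29.1% and 19.5%.

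**Figure D5:**
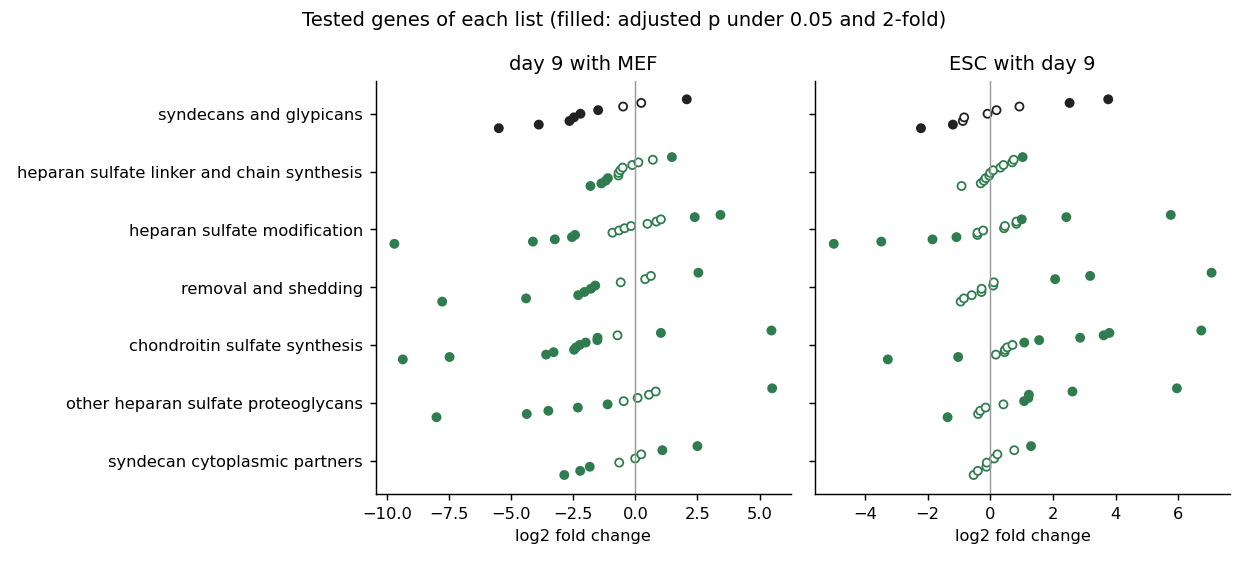
Log2 fold change of each tested syndecan and glypican (black) and each tested gene of the 6 pathway lists (green), for day 9 with MEF and for ESC with day 9; filled points passed both thresholds, and height within a row only ranks the genes. The chondroitin sulfate list has 10 of 13 genes called lower and 2 higher in the first comparison, beside 19.8% and 24.1% of all tested genes. In the second it has 6 called higher and 2 lower, beside 18.6% and 14.3% of all tested genes.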

How the data were processed

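RNA was measured by stranded poly(A) RNA-seq with single reads of 50 nt in 10 libraries, grouped by sample title. Per the file headers, the deposited tables give for each of 109617 transcripts an estimated count of reads, a deposited TPM, a length and an effective length (identical in all tables). Salmon 0.8.2 and mm10 are named in the submitters' processing notes, and the annotation release is not given in the sources used here. The deposited estimated counts are not normalized, and the authors' TPM values are scaled to the same total in each library.

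Counts and TPM were summed per symbol (92 symbols join more than 1 gene ID), and counts were rounded. Genes were kept with filterByExpr (minimum count 10, total 15), which left 20140, and scaled by TMM. The quasi-likelihood test of edgeR 4.0.16, run in R 4.3.3, used group means over all 10 libraries. Calls needed an adjusted p-value (Benjamini-Hochberg) below 0.05 together with a log2 fold change of 1 or more in either direction. The standard error of a log2 fold change is its size divided by the root of F. An exact two-sided permutation test of 2 libraries against 2 cannot go below 0.333 and was not used. The edgeR, limma and DESeq2 fits were tested on simulated data.

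All members were named. Up to 2 called genes per pathway list and step, at 5 CPM or more and with the largest change, were named, and likeness was ranked at 10 CPM or more. Members and lists were chosen with earlier results of these data known. Coordinates are from GENCODE M21 (GRCm38), which held 98.8% of the gene IDs. Alternatives were DESeq2 1.42.0, limma 3.58.1 on log2(TPM + 1) or log2(TPM + 0.1), other filters, scalings and transcripts, fits to 2 groups, no fold minimum, a replicate block and leaving out each library. Replicates of a group differed by more than sampling noise (chi-square per degree of freedom 2.81 to 5.18), and the common biological coefficient of variation was 3.71%. Figures were drawn with Python 3.11.15 and matplotlib 3.10.9.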

Additional observations from a re-analysis of the deposited data

Results flagged for a closer look

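The share of Gpc2 reads on transcripts annotated as retaining an intron, which the gene-level sums include but do not show, was above its level in both MEF libraries (12.0% and 13.6%) at every induced time. These transcripts took 38.6% of the Gpc2 reads in replicate 1 of day 3 and 46.8% in replicate 2. The day 6 replicates had 36.8% and 37.9%, and the day 9 replicates 30.5% and 31.3%. The difference between groups was not tested.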

How the results depend on the processing

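Of 130 alternative counts of called members, 123 stayed within 1.5 times the reported count, and of 1170 alternative log2 fold changes 1108 kept their direction and call, 27 gained a call, 15 lost it and 20 changed sign. The changes of sign were in small differences, none of them called. For Sdc2 at day 3 against MEF they were -0.085 with DESeq2, -0.049 with 10 CPM in 2 libraries, -0.025 with 2 groups, -0.417 with the length offset, -0.410 and -0.421 with limma on TPM (pseudocounts 1 and 0.1) and -0.033 without the ESC libraries, a fit chosen after seeing the data. For Sdc4 in that comparison they were -0.021 with DESeq2, -0.066 with the length offset and -0.071 and -0.073 in the limma fits. For Sdc1 at day 6 against day 3 they were -0.003 with DESeq2, -0.007 with 2 groups, -0.055 without D3 replicate 2 and -0.01 without the ESC libraries. Gpc1 gave -0.021 and -0.024 in the limma fits between day 9 and day 6, its difference of ESC from day 9 was 0.067 and 0.075 there, and Gpc2 gave 0.197 for ESC with MEF under library-size scaling. Without a fold minimum, 8 of the 9 tested members passed in each of the 4 successive steps. The share of all genes that passes without it was not computed, so this count has no background to be read against. For day 9 with day 6 the count was 1 with 10 CPM in 2 libraries and 1 with limma on log2(TPM + 1). Leaving out 1 library gave 4 to 5 members in each of the first 2 steps, 1 to 2 for day 9 with day 6 (1 without D6 replicate 1), 4 for ESC with day 9 and 7 for either comparison of ESC or day 9 with MEF. The lone library left in a group is there assumed to vary like the others. The cause was not tested. Libraries with the same replicate number shared no clear deviation from their group means (mean correlation 2e-04, from -0.0199 to 0.0284). Such values cannot tell whether these libraries were derived or prepared together. With the replicate block the counts were 5, 4, 2, 4, 7 and 7, the same as without it. Library-size scaling moved the median of all genes to 0.29 for day 3 with MEF and 0.44 for ESC with MEF. Of 210 alternative summed levels and shares, 132 lay more than 1 SD of the replicates away with other transcripts, scalings or units. Gpc5 is limited by depth.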

Other observations

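Sulfatases and neighbouring gene pairs showed patterns that the account of the lists does not hold, and they were picked after their values were seen. Sulf1 and Sulf2, the extracellular enzymes that remove 6-O-sulfate from heparan sulfate, went apart at day 3. Sulf1 fell from 389.2 CPM in MEF to 106.2 at day 3 (log2 fold change -1.87 ± 0.037, edgeR adjusted p = 7.3e-15), while Sulf2 was at 215.2 and 414.5 CPM (0.95 ± 0.031, under the 2-fold minimum). Ndst1, the N-deacetylase and N-sulfotransferase that opens chain modification, was at 134.3 CPM in MEF, 136.6 at day 3, 139.1 at day 6 and 119.3 at day 9, and was lower in ESC at 33.2 CPM (-1.85 ± 0.044 against day 9, edgeR adjusted p = 4.7e-14).

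Chst3 and Spock2, both near 2 CPM in MEF and among the larger increases of their lists at day 3, are neighbours on chromosome 10 with 46333 bases and 0 gene models between them. Chst3 was at 2.03 and 2.35 CPM in MEF, 114.4 and 123.7 at day 3, 163.9 and 166 at day 6, 99.4 and 97.9 at day 9, and 10.6 and 9.91 in ESC. Spock2 was at 1.48 and 1.68 CPM in MEF, 74.6 and 75.2 at day 3, 166.1 and 169.1 at day 6, 69.9 and 74.8 at day 9, and 28.3 and 28.0 in ESC. Both were highest at day 6 with no overlap between day 6 and any other group. Hs3st3a1 and Hs3st3b1 lie 513041 bases apart on chromosome 11, with 5 gene models between them, and both rose at day 3.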
